A study of Macaca fascicularis with 20 samples.

Results

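The miRNAs described here are mir-142, mir-146a, mir-150, mir-155, mir-223 and mir-342, 6 miRNAs known from microglia, myeloid cells and lymphocytes. They were chosen by name, and both arms of each were followed (written miR-142-5p and miR-142-3p, for example), which gave 12 of the 1656 arms in the data. The tissue was the fetal visual cortex of the crab-eating macaque (Macaca fascicularis), cut by UV laser into 7 regions, and small RNA libraries were prepared with size selection. Both germinal zones were sampled, namely the ventricular zone (VZ), which lines the ventricle and holds dividing radial glia, and the outer subventricular zone (OSVZ) above it. The cortical plate (CP), the layer of newly arrived neurons, was sampled too. Each was taken in area 17 and in area 18, and the OSVZ of area 17 as an inner, apical part (OSVZ_17int) and an outer, basal part (OSVZ_17ext). Each region had 2 libraries, replicate 1 from embryonic day 80 (set 1) and replicate 2 from day 79 (set 2). No treatment or genotype is named, and whether 1 animal gave all regions of a set is not stated. A p-value therefore measures the spread between these libraries, which may be technical in part.

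A miRNA is cut from a hairpin whose 5′ and 3′ sides give a 5p and a 3p arm. As a rule, 1 arm is loaded into Argonaute and kept, and the other, the passenger, is degraded. miR-142 is made in nearly all blood cell lineages, miR-223 in granulocytes and monocytes, and miR-150 in mature lymphocytes. miR-155 and miR-146a are induced by inflammatory signals, and miR-146a dampens Toll-like receptor signalling. miR-342 lies in an intron of EVL, a regulator of the actin cytoskeleton that is active in blood cells and in neurons. In fetal cortex the resident immune cells are microglia, which arise in the yolk sac. A laser-cut piece holds all cells of its layer, vessels and blood included, so in these bulk samples fewer cells of a type and less RNA per cell cannot be told apart.

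The libraries held between 3603478 and 9517217 counts over all arms (median 6729539). The neural miRNAs looked at were not all abundant. miR-125b-5p was at 26.8% to 49.3% and miR-9-5p at 0.479% to 7.19% of a library's counts. miR-128, also on that list, was not found among the names kept. The 3p arm of miR-124, a defining miRNA of neurons, was counted at 0 to 19 per library, a value that may depend on how reads matching several loci were counted, which is not given in the sources used here. VZ_18 replicate 1 stood apart from the other VZ libraries in passenger arms and erythroid miRNAs, as given below. The lowest share of miR-9-5p, 0.479%, was in VZ_17 replicate 2, where OSVZ libraries had at least 1.29% and CP libraries at least 3.07%. A refit left both of these VZ libraries out. Levels are in CPM, counts rescaled to a common library total with TMM factors, as mean ± SD over libraries (n = 4 for VZ, n = 6 for the OSVZ and n = 4 for CP). The factors were 1.036 to 1.514 in set 2 and 0.5669 to 0.8076 in set 1, except 1.318 in VZ_18 replicate 1. Differences are log2 values ± standard error (SE) from 1 edgeR quasi-likelihood fit over all 14 libraries with the set as a block. An arm was called at a Benjamini-Hochberg adjusted p under 0.05 over the 1139 arms tested.

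Among the 12 arms, 6 reached a mean of 10 CPM. They were miR-342-3p (13670 CPM, rank 12 of 1656 arms), miR-150-5p (508 CPM), miR-342-5p (198 CPM), miR-155-5p (119 CPM), miR-223-3p (101 CPM) and miR-146a-5p (61.9 CPM). The other 6 had means between 1.15 CPM (miR-150-3p) and 7.87 CPM (miR-155-3p) and are given mainly by their counts. All 12 passed the filter on low counts.

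**Figure D1:**
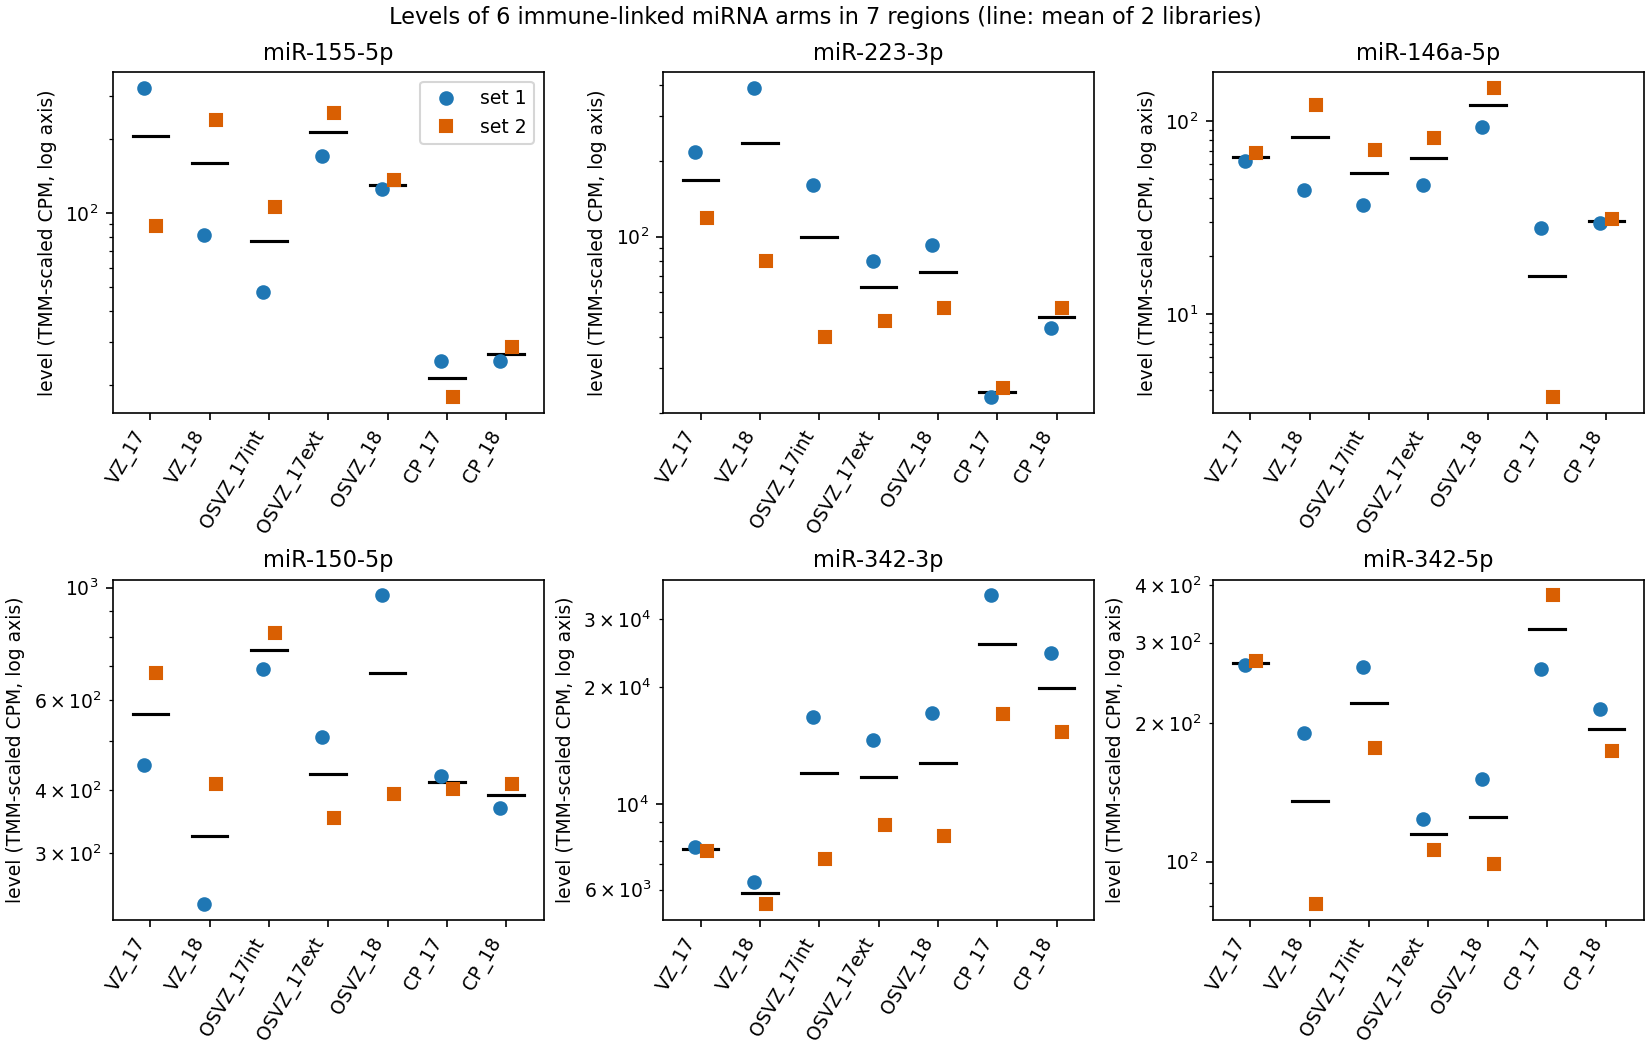
Level of 6 arms (TMM-scaled CPM, log axis) in each of 7 regions, with circles for set 1, squares for set 2 and a line at the mean of the 2 libraries. miR-155-5p sits between 17.9 and 28.6 CPM in the 4 CP libraries and at 47.7 CPM or more in the other 10, a gap that OSVZ_17int replicate 1 does not keep in unscaled CPM, while miR-342-3p has its highest region means in CP.

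The activation-linked miR-155-5p was higher in both germinal zones than in CP. Its level was 323 CPM in VZ_17 replicate 1, 89.0 in VZ_17 replicate 2, 81.8 in VZ_18 replicate 1 and 239 in VZ_18 replicate 2. In the OSVZ it ran from 47.7 CPM (OSVZ_17int replicate 1) through a median of 131 to 256 CPM (OSVZ_17ext replicate 2). The CP libraries were at 25.1 and 17.9 CPM in area 17 and at 25 and 28.6 CPM in area 18. On this scale all 10 germinal libraries lay above all 4 CP libraries. In CPM of the unscaled library total all VZ libraries still did, while OSVZ_17int replicate 1 (27.1) fell below CP_18 replicate 2 (29.6). Behind these levels were 109 to 225 counts per CP library and 236 to 1644 per germinal library.

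On the log2 scale miR-155-5p was 2.92 ± 0.53 higher in VZ than in CP (edgeR adjusted p = 0.000184), with 183 ± 118 CPM in VZ and 24.1 ± 4.49 CPM in CP (n = 4 each). In set 1 alone the log2 ratio of the zone means was 3.01, and in set 2 alone 2.82. For the OSVZ against CP it was 2.41 ± 0.50 (edgeR adjusted p = 0.00129), at 140 ± 69.7 CPM in the OSVZ (n = 6), with 2.23 in set 1 and 2.77 in set 2. These comparisons share the CP libraries. Without VZ_18 replicate 1 the difference between VZ and CP was 3.44 (edgeR adjusted p = 2.03e-05). The order of regions by mean was OSVZ_17ext (213 CPM), VZ_17 (206), VZ_18 (160), OSVZ_18 (131), OSVZ_17int (76.6), CP_18 (26.8) and CP_17 (21.5). The first 4 overlapped with their neighbours in this order, OSVZ_17int lay apart from OSVZ_18 and from CP_18, and the CP regions overlapped.

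The inner and outer parts of the area 17 OSVZ did not overlap for miR-155-5p, with 47.7 and 106 CPM in the inner and 171 and 256 CPM in the outer. The difference was -1.49 ± 0.71 for inner against outer and was not called (edgeR adjusted p = 0.938). Of all arms tested, 31% had no overlap between these pairs of libraries, so this separation was common.

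Granulocyte and monocyte miR-223-3p was higher in VZ than in CP, with the OSVZ between them. VZ_18 replicate 1 held the highest level, 390 CPM on 4185 counts. The other VZ libraries were at 216 CPM (VZ_17 replicate 1), 118 CPM (VZ_17 replicate 2) and 79.7 CPM (VZ_18 replicate 2). CP had 23.0 and 25.1 CPM in area 17 and 43.2 and 52.2 CPM in area 18. Every VZ library was above every CP library, and the lowest VZ library was 79.7 CPM against 52.2 CPM in the highest of CP. OSVZ levels ran from 39.8 CPM (OSVZ_17int replicate 2) through a median of 66.1 to 160 CPM (OSVZ_17int replicate 1) and overlapped with both.

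The difference between VZ and CP was 2.29 ± 0.52 for miR-223-3p (edgeR adjusted p = 0.00303), with 201 ± 138 CPM in VZ and 35.9 ± 14.1 CPM in CP. It was 3.19 in set 1 and 1.36 in set 2. Without VZ_18 replicate 1 it was 2.05 and still called (edgeR adjusted p = 0.0187), and it was no longer called without CP_17 replicate 1 (2.0, adjusted p = 0.0627) or without CP_18 replicate 1 (1.96, adjusted p = 0.0534). The OSVZ, at 78.3 ± 44.7 CPM, was not called against CP (0.96 ± 0.48, edgeR adjusted p = 0.326) or against VZ (-1.33 ± 0.46, adjusted p = 0.382). By region mean the order was VZ_18 (235 CPM), VZ_17 (167), OSVZ_17int (99.7), OSVZ_18 (72.1), OSVZ_17ext (63.2), CP_18 (47.7) and CP_17 (24.1), and the CP regions were the only neighbours in it that did not overlap.

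Erythroid miRNAs, which red blood cells carry, were measured beside miR-223-3p. The 6 erythroid arms (miR-451, miR-144 and miR-486) summed to 334 CPM in VZ_18 replicate 1, to 55.9 to 128 CPM in the other VZ libraries, to 18.9 to 103 CPM in the OSVZ and to 27.5 to 126 CPM in CP. Of the 4 erythroid arms tested, 0 were called between VZ and CP by edgeR. An unadjusted p under 0.05 was found in 2, where the share of all arms is not given here. All 4 were above 0, with a median log2 difference of 1.53, and of 0.64 without VZ_18 replicate 1. miR-144-5p had 655 counts in VZ_18 replicate 1 and 0 to 14 in each of the other 13 libraries. Endothelial miR-126, at a summed 980 to 2794 CPM in VZ and 1547 to 4504 CPM in CP, was not called in either arm. The part of blood in the difference of miR-223-3p between VZ and CP was not tested.

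The feedback miRNA miR-146a-5p had its 4 lowest libraries in CP in TMM-scaled CPM. They were at 27.8 CPM (CP_17 replicate 1), 3.69 CPM (CP_17 replicate 2), 29.7 CPM (CP_18 replicate 1) and 31.2 CPM (CP_18 replicate 2). VZ libraries were at 61.9, 68.6, 44.0 and 121 CPM in the order VZ_17 and VZ_18, replicate 1 before replicate 2. OSVZ libraries ran from 36.6 CPM (OSVZ_17int replicate 1) through a median of 76.6 to 149 CPM (OSVZ_18 replicate 2). CP_17 replicate 2 was far below the rest of CP, with 31 counts. In CPM of the unscaled total VZ stayed apart from CP, but the OSVZ did not, with 20.8 in OSVZ_17int replicate 1 and 31.9 in OSVZ_17ext replicate 1 against 22.6 and 32.3 in CP_18. By region mean of TMM-scaled CPM the order was OSVZ_18 (121 CPM), VZ_18 (82.5), VZ_17 (65.3), OSVZ_17ext (64.5), OSVZ_17int (53.9), CP_18 (30.4) and CP_17 (15.8), with overlap between neighbours down to OSVZ_17int and none below it.

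miR-146a-5p was not called in either comparison with CP. The difference was 1.66 ± 0.62 for VZ against CP (edgeR adjusted p = 0.111) and 1.86 ± 0.60 for OSVZ against CP (adjusted p = 0.0579). VZ and OSVZ, at 73.9 ± 33.1 and 79.8 ± 40.0 CPM, overlapped (0.20 ± 0.55, edgeR adjusted p = 0.926), an estimate too wide to show that they were equal. Without CP_17 replicate 2 the differences from CP fell to 1.09 and 1.30 (edgeR adjusted p = 0.444 and 0.483). The difference of the OSVZ from CP was called in 6 of 7 other settings, among them DESeq2 (2.01, adjusted p = 0.00542) and DESeq2 size factors in edgeR (2.0, adjusted p = 0.0413). Without CP_17 replicate 1 both were called, at 2.95 for VZ (edgeR adjusted p = 0.00965) and 3.21 for the OSVZ (adjusted p = 0.00444), which leaves CP_17 replicate 2 as the only CP_17 library. The VZ difference was called in 3 of 7 other settings, which were DESeq2 (1.88, adjusted p = 0.0175), edgeR on arms of at least 10 CPM (1.95, adjusted p = 0.0333) and edgeR without VZ_17 replicate 2 and VZ_18 replicate 1 (2.24, adjusted p = 0.00542). It was also called without VZ_17 replicate 2 (adjusted p = 0.0376), and without VZ_18 replicate 1 (adjusted p = 0.0329). For the OSVZ this happened when any 1 of the 4 VZ libraries (adjusted p of 0.00905, 0.011, 0.0154 and 0.0445) or OSVZ_17int replicate 1 (0.0358) was left out.

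**Figure D2:**
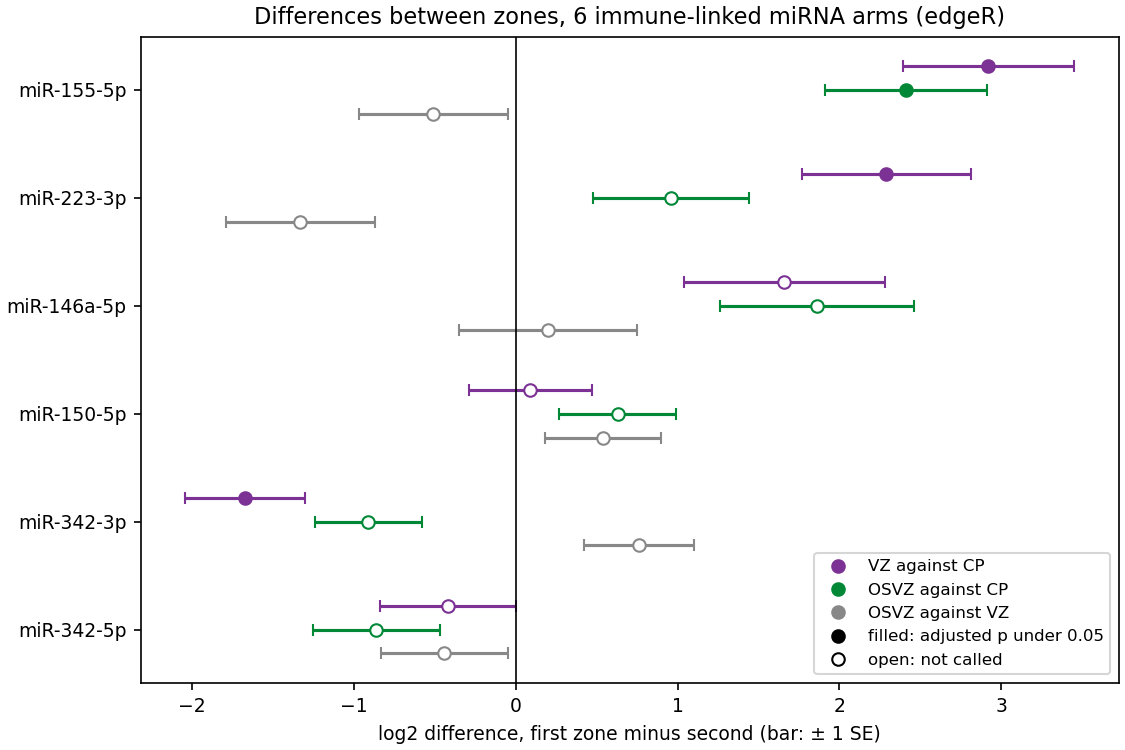
Log2 difference between zones (first minus second, bars ± 1 SE) of 6 arms in 3 comparisons, filled where the edgeR adjusted p was under 0.05. miR-155-5p is filled in both comparisons with CP, at 2.92 and 2.41, and miR-223-3p (2.29) and miR-342-3p (-1.67) for VZ against CP alone.

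Lymphocyte miR-150-5p passed the test in no zone comparison. CP libraries lay between 369 and 426 CPM, VZ libraries between 238 CPM (VZ_18 replicate 1) and 679 CPM (VZ_17 replicate 2), and OSVZ libraries between 352 CPM (OSVZ_17ext replicate 2) and 967 CPM (OSVZ_18 replicate 1). The zones overlapped throughout. The difference was 0.09 ± 0.38 for VZ against CP (edgeR adjusted p = 0.93), 0.63 ± 0.36 for OSVZ against CP (adjusted p = 0.443) and 0.54 ± 0.36 for OSVZ against VZ (adjusted p = 0.559). Between these parts of the area 17 OSVZ it was 0.81 ± 0.54 (adjusted p = 0.938), at 693 and 814 CPM in the inner and 509 and 352 CPM in the outer.

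The intronic miR-342-3p ran the other way and was lower in VZ than in CP. Its level was 7724 and 7547 CPM in VZ_17 (replicates 1 and 2) and 6268 and 5496 CPM in VZ_18. CP_17 held 34610 and 17052 CPM and CP_18 held 24533 and 15369 CPM. All VZ libraries were below all CP libraries. By region mean the order was CP_17 (25831 CPM), CP_18 (19951), OSVZ_18 (12714), OSVZ_17int (11979), OSVZ_17ext (11701), VZ_17 (7635) and VZ_18 (5882), and OSVZ_17ext, VZ_17 and VZ_18 did not overlap with each other. The OSVZ fell into its sets, with 14601 to 17149 CPM in the 3 libraries of set 1 and 7203 to 8800 CPM in the 3 of set 2. In CPM of the unscaled library total, the same libraries were at 9499 to 13849 in set 1 and at 10905 to 12281 in set 2, and the sets overlapped.

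The difference was -1.67 ± 0.37 for VZ against CP (edgeR adjusted p = 0.00214), with -2.08 in set 1 and -1.31 in set 2. It was -1.23 with library totals in place of TMM, and still called (edgeR adjusted p = 0.00616). The OSVZ was not called against CP (-0.91 ± 0.33, adjusted p = 0.114) or against VZ (0.76 ± 0.34, adjusted p = 0.477). By DESeq2 (-0.76, adjusted p = 0.0471) and among arms of at least 10 CPM alone (-0.75, edgeR adjusted p = 0.0406) the OSVZ was called as lower than CP. As read shares, miR-342-3p outweighed the other immune miRNAs in every library. The 10 arms without miR-342 summed to 861 to 1059 CPM in VZ, 737 to 1283 CPM in the OSVZ and 464 to 525 CPM in CP, a grouping made after the values were seen. In CPM of the unscaled total the OSVZ (537 to 1562) and CP (310 to 544) overlapped. With miR-342 included the TMM-scaled sum ran the other way, at 6438 to 9051 CPM in VZ, 8411 to 18583 CPM in the OSVZ and 16068 to 35384 CPM in CP. Of the arms without miR-342, miR-150-5p had the highest mean in each zone (443 CPM in VZ, 621 CPM in the OSVZ, 402 CPM in CP), and it was called in no zone comparison.

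The other arm of the same hairpin, miR-342-5p, had another pattern. It was at 203 ± 89.9 CPM in VZ, 154 ± 62.3 CPM in the OSVZ and 258 ± 89.7 CPM in CP, with overlap between all zones. No zone comparison called it, at -0.42 ± 0.42 for VZ against CP (edgeR adjusted p = 0.579, and 0.10 with library totals in place of TMM), -0.86 ± 0.39 for OSVZ against CP (adjusted p = 0.265) and -0.44 ± 0.39 for OSVZ against VZ (adjusted p = 0.696). Within a library the ratio of the arms needs no scaling. The 5p arm took 3.35%, 3.49%, 2.96% and 1.44% of the counts of both arms in the VZ libraries, 0.842% to 2.40% in the OSVZ and 0.753%, 2.19%, 0.867% and 1.12% in CP. Of the VZ libraries, 3 were above every library of the other zones, and VZ_18 replicate 2 was not.

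The log2 ratio of 5p to 3p was 1.27 higher in VZ than in CP, by a 2-sided exact permutation test over libraries that was added after the values were seen (p = 0.0571, and 0.0857 adjusted over 3 zone comparisons, where 70 arrangements allow no p below 0.0286). It was -1.11 in the OSVZ against VZ (exact permutation p = 0.0286, adjusted 0.0857) and 0.16 in the OSVZ against CP (exact permutation p = 0.657, adjusted 0.657). The difference was 2.0 in set 1 and 0.53 in set 2 for VZ against CP, and -1.62 and -0.60 for the OSVZ against VZ. Since libraries of a set deviate together, the exact permutation was repeated within sets, with p = 0.111 for VZ against CP (36 arrangements, smallest p 0.0556) and p = 0.05 for the OSVZ against VZ (100 arrangements, smallest p 0.01), or 0.167 and 0.15 adjusted over 3. None passed after adjustment.

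miR-142, the miRNA of nearly all blood lineages, was close to the limit of detection. miR-142-3p had 20 counts in VZ_17, 70 in VZ_18, 18 in OSVZ_17int, 18 in OSVZ_17ext and 17 in OSVZ_18 of set 1, and 0 in both CP libraries of that set. In set 2 it had 0 counts in all 7 libraries, on 37739927 counts in all, which allows a share of up to 0.0795 CPM of the unscaled total (3 counts, for counting error only). miR-142-5p had 19, 27, 89 and 20 counts in the VZ libraries, 0 to 19 in the OSVZ and 2, 20, 11 and 3 in CP. Its VZ levels of 2.90 to 8.29 CPM lay above the 0.381 to 2.44 CPM of CP without overlap. Neither arm was called by edgeR in any of the 5 comparisons.

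The passenger arms of miR-155, miR-223, miR-150 and miR-146a were low except in a few libraries. miR-155-3p had 881 counts in VZ_18 replicate 1, 89 in CP_17 replicate 2 and 0 to 33 in the other 12 libraries. That was 50.1% of the counts of both arms in VZ_18 replicate 1 (exact 95% binomial interval 47.7% to 52.4%), 37.2% in CP_17 replicate 2 (31.1% to 43.7%) and a median of 0.881% over the libraries other than the highest. miR-223-5p had 667 counts in VZ_18 replicate 1, or 13.7% of both arms (12.8% to 14.7%), where the next highest share was 5.66% in CP_17 replicate 1. miR-150-3p had 85 counts there, or 3.22% (2.58% to 3.97%), against at most 0.388% in any other library. For miR-146a-3p the highest shares were in area 17 of CP, at 19.3% in CP_17 replicate 1 and 18.4% in CP_17 replicate 2, followed by 11.6% in VZ_18 replicate 1. These intervals cover counting error only, since amplified reads are not independent molecules.

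Passenger arms were raised in VZ_18 replicate 1 beyond these miRNAs too. For 288 miRNA names with a mean of at least 10 CPM over both arms, the arm less abundant over all libraries was followed. Of these names, 54 (18.8%) had its highest share in VZ_18 replicate 1, against 5 to 37 names in each of the other 13 libraries. Its median share was 5.30%, the highest of all libraries, the others being at 1.33% to 4.94%. High passenger arms in that library were thus not limited to the immune miRNAs, and the cause was not tested. None of miR-155-3p, miR-223-5p, miR-150-3p and miR-146a-3p was called between VZ and CP by edgeR, with VZ_18 replicate 1 or without it. Leaving it out moved miR-155-3p from 0.72 to 0.21 (edgeR adjusted p = 0.991), miR-150-3p from 3.06 to 1.05 (adjusted p = 0.843) and miR-146a-3p from -0.84 to -1.05 (adjusted p = 0.816). miR-223-5p, at 4.49 (edgeR adjusted p = 0.101), was called by DESeq2 (4.78, adjusted p = 0.00366), by edgeR without the filter (4.78, adjusted p = 0.0283) and without VZ_17 replicate 1 (5.11, adjusted p = 0.0175). It was at 3.13 without VZ_18 replicate 1 (edgeR adjusted p = 0.479), at 0.29 without VZ_17 replicate 2 (adjusted p = 0.969), and at -0.44 without that library and VZ_18 replicate 1 (adjusted p = 0.904).

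**Figure D3:**
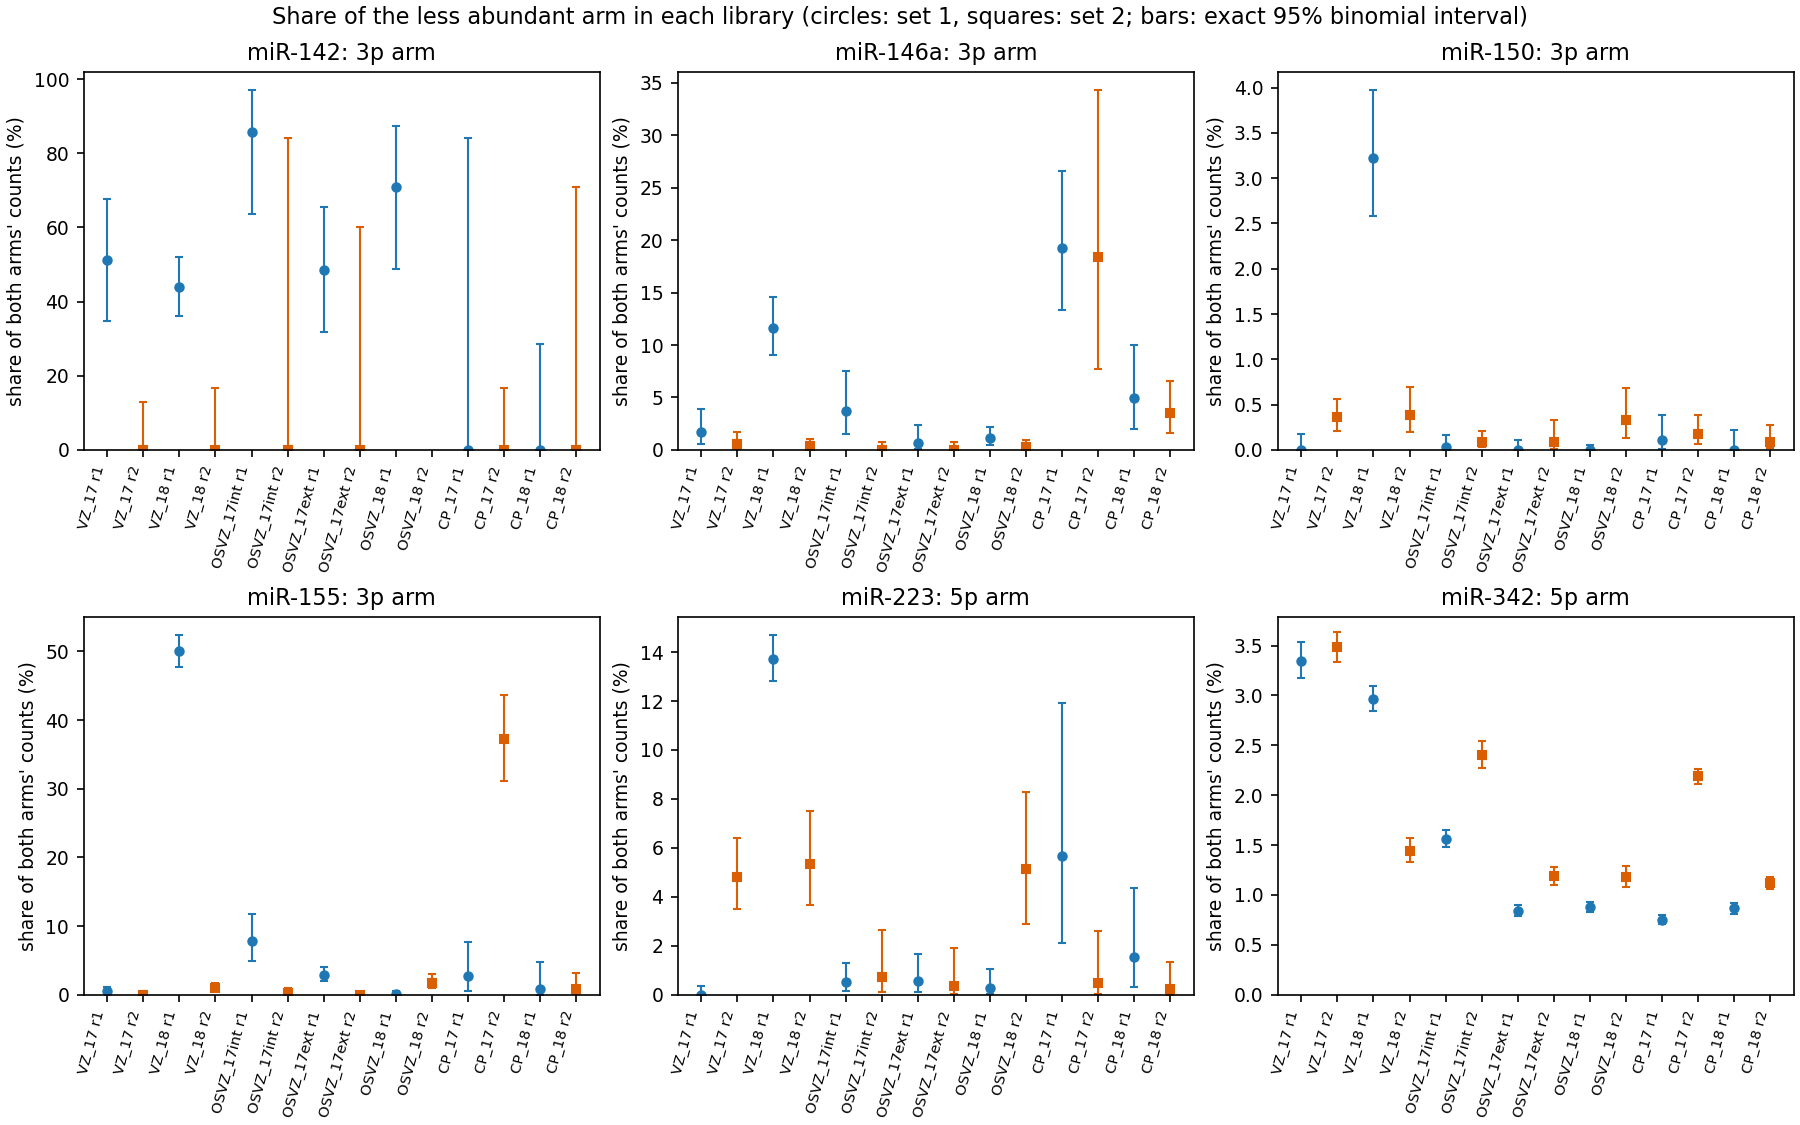
Share (%) in the counts of both arms of the arm less abundant over all libraries, for 6 miRNAs. Bars are exact 95% binomial intervals, with circles for set 1 and squares for set 2. All 14 libraries are shown, except that OSVZ_18 replicate 2 has 0 counts of miR-142 and no point there. For miR-142 the arm shown is the more abundant in some set 1 libraries, at up to 85.7% in OSVZ_17int replicate 1. VZ_18 replicate 1 is highest for miR-155 (50.1%), miR-223 (13.7%) and miR-150 (3.22%), and miR-342 is above 2.9% in 3 of 4 VZ libraries.

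Counted over the 12 arms, 2 were higher and 1 was lower in VZ than in CP and 9 did not pass, where 7.37% of all tested arms were called. By direction, 2.63% of all tested arms were called higher (30 arms) and 4.74% lower (54 arms). With library totals in place of TMM these were 37 higher and 32 lower. The median log2 difference of the 12 arms was 1.63, against -0.22 over all tested arms, a median that moved to 0.02 with DESeq2 size factors and to 0.21 with library totals. Under these scalings miR-155-5p was at 3.17 and 3.28, miR-223-3p at 2.56 and 2.87 and miR-342-3p at -1.43 and -1.23, and all 3 stayed called. Without VZ_18 replicate 1 the median was 1.38 for the 12 arms and -0.44 for all arms. These medians include the arms below 10 CPM. Over all 14 libraries those were at 6.09 ± 2.50 (miR-142-3p), 4.49 ± 1.63 (miR-223-5p), 3.06 ± 1.72 (miR-150-3p), 1.60 ± 1.46 (miR-142-5p), 0.72 ± 2.01 (miR-155-3p) and -0.84 ± 1.44 (miR-146a-3p). Fitted without such arms, the median of all arms was 0.22. There miR-155-5p was at 3.21, miR-223-3p at 2.66, miR-146a-5p at 1.95, miR-150-5p at 0.40, miR-342-5p at -0.07 and miR-342-3p at -1.35. In 4 of the 12 arms every VZ library lay above every CP library and in 1 every library lay below, where 3.07% and 10.1% of all arms did so. In the OSVZ 1 arm was higher than in CP, 0 were lower and 11 did not pass (background 6.32%, with 2.11% or 24 arms higher and 4.21% or 48 arms lower), with a median of 0.26 against -0.20. Of all arms, 35 were called higher and 44 lower once DESeq2 size factors were used, and 38 and 34 once library totals were. In 2 of the 12 arms, miR-155-5p and miR-146a-5p, every OSVZ library lay above every CP library (background 2.72%), and in 0 every library lay below (background 5.71%). With library totals in place of TMM neither of these arms was apart from CP, miR-223-3p was above (1 of 12, background 3.42%), and miR-342-3p and miR-146a-3p were below (2 of 12, background 3.78%). For VZ the same 4 arms above (background 4.57%) and 1 below (background 5.27%) were found with library totals. Between the OSVZ and VZ 0 of the 12 arms were called by edgeR (background 0.0878%), with a median of -0.82 against 0.12. An unadjusted p under 0.05 was found in 5 of the 12. The share of all arms at that threshold is not given here, so the 5 are not read as an excess. DESeq2 called 27 arms in all, among them 1 of the 12, miR-223-3p (-1.42, adjusted p = 0.0492).

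Inner and outer OSVZ of area 17 gave 0 calls by edgeR among the 12 arms (background 0%), with 1 at an unadjusted p under 0.05 and 0 by DESeq2. For the other arms the difference was -0.27 ± 0.83 (miR-146a-5p), 0.49 ± 0.70 (miR-223-3p), 0.93 ± 0.59 (miR-342-5p) and -0.02 ± 0.51 (miR-342-3p), with edgeR adjusted p from 0.938 to 1. Area 17 against area 18 also gave 0 calls by edgeR (background 0.0878%), with 1 arm at an unadjusted p under 0.05 and 0 by DESeq2. That arm was miR-342-5p, at 232 CPM in area 17 and 152 CPM in area 18 (0.74 ± 0.33, adjusted p = 0.533). The others were at -0.72 ± 0.47 (miR-146a-5p), -0.42 ± 0.38 (miR-223-3p), 0.21 ± 0.30 (miR-150-5p), 0.04 ± 0.39 (miR-155-5p, -0.14 with library totals) and 0.21 ± 0.28 (miR-342-3p, -0.0029 with library totals), at edgeR adjusted p from 0.709 to 1. Whether the step from CP to the germinal zones differed between the areas was tested as an interaction, and edgeR called 0 of the 12 arms for VZ (background 0.0878%, 1 arm of 1139) and 0 for the OSVZ (background 0%). For miR-155-5p this difference of differences was 0.77 ± 1.0 in VZ and 0.24 ± 0.93 in the OSVZ. The share of all arms at an unadjusted p under 0.05 is not given here. The 1 arm at that threshold between the OSVZ parts, and the 1 between the areas, are thus not read as an excess.

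Across the 14 libraries, after the mean of each set was taken out, miR-155-5p was most like miR-152-3p (r = 0.91), miR-887-3p (0.91) and let-7c-5p (0.89) among the 379 arms of at least 10 CPM. let-7c-5p was also nearest to miR-146a-5p (0.87), followed by miR-193a-5p and miR-1301-3p (0.79 each). miR-223-3p was most like miR-29b-5p (0.83), miR-29a-3p (0.79) and miR-28-3p (0.77). The nearest arms of miR-342-3p were miR-125a-5p (0.95), miR-340-3p (0.93) and miR-767-5p (0.93), and those of miR-342-5p were miR-1249-3p (0.77), miR-539-5p (0.69) and miR-505-5p (0.69). miR-150-5p was nearest to the smooth muscle miRNA miR-145-5p (0.74), then to miR-454-5p (0.72) and miR-99a-5p (0.71). None of the immune arms was among the 3 nearest of another. Between them, miR-155-5p and miR-146a-5p gave 0.77, miR-155-5p and miR-223-3p 0.52, miR-223-3p and miR-342-3p -0.85, and miR-150-5p stayed between -0.08 and 0.21 with all others. These are descriptions over libraries that share zones and scaling.

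**Figure D4:**
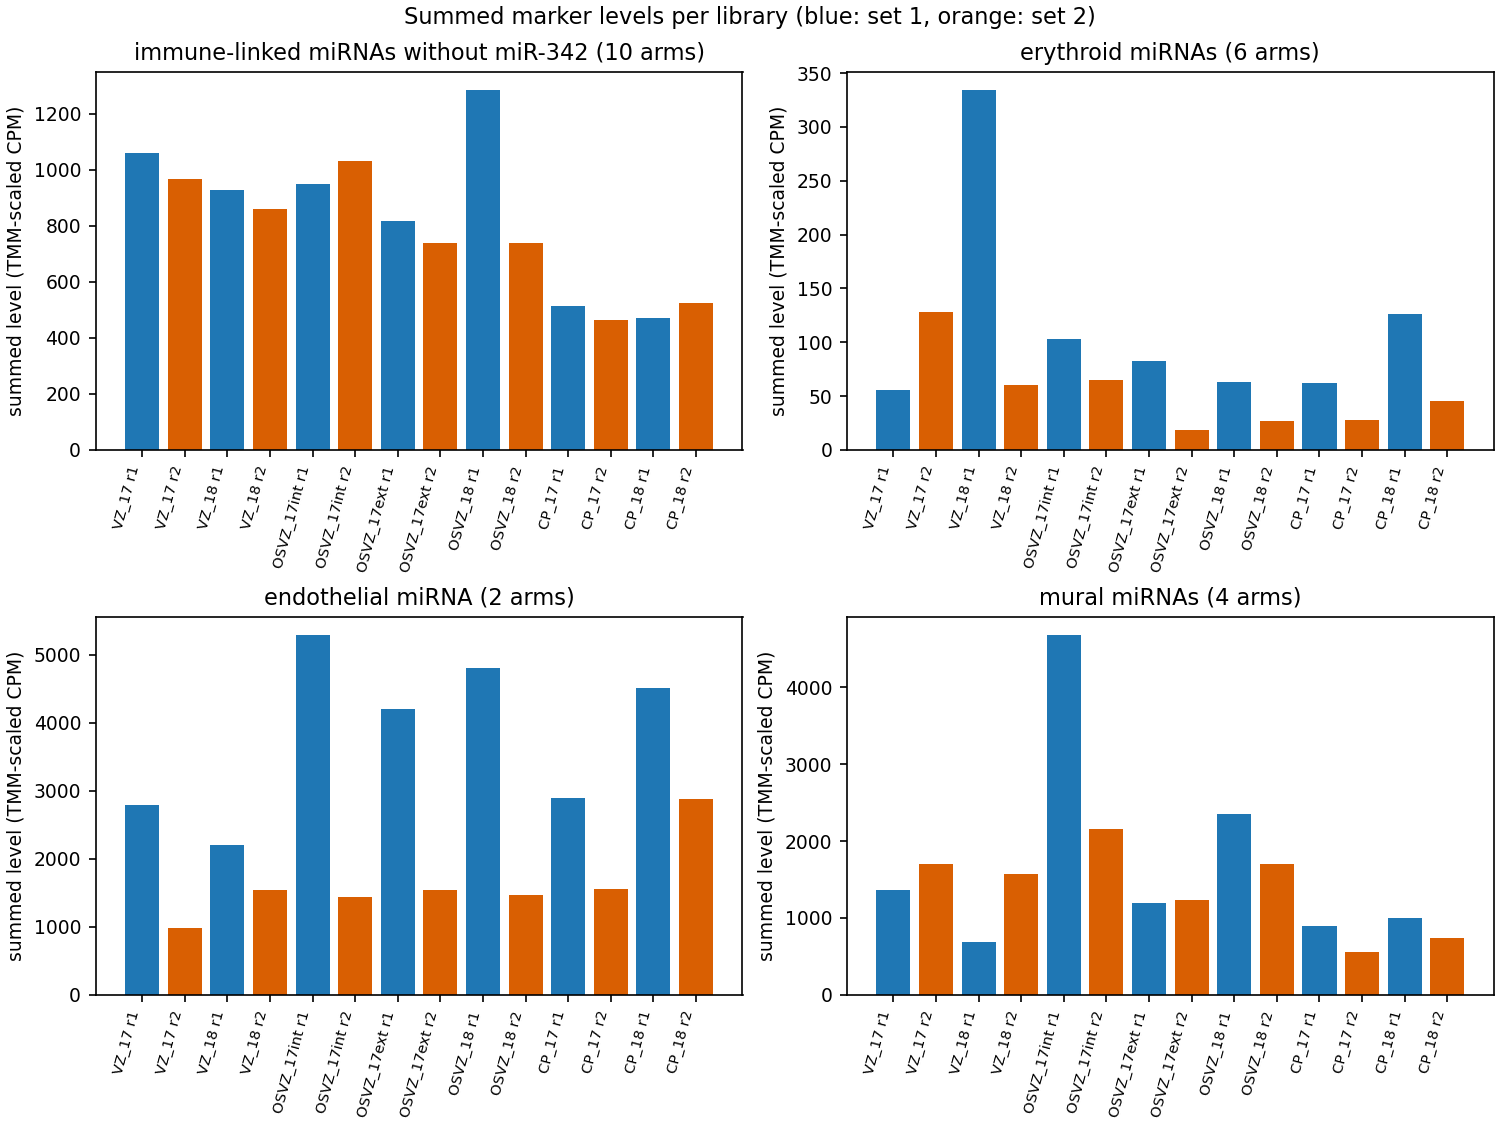
Summed level (TMM-scaled CPM) per library of the 10 immune-linked arms other than miR-342 and of the erythroid, endothelial and mural arms, with blue bars for set 1 and orange for set 2. The immune-linked sum is 464 to 525 CPM in the 4 CP libraries and 737 CPM or more elsewhere (the OSVZ and CP overlap in unscaled CPM). With miR-342 included the sum runs the other way, at 6438 to 9051 CPM in VZ and 16068 to 35384 CPM in CP. The erythroid sum is highest in VZ_18 replicate 1 at 334 CPM.

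Mural miRNAs, from the smooth muscle and pericytes of vessels, were measured as a further marker. Their 4 arms summed to 689 to 1704 CPM in VZ, 1194 to 4683 CPM in the OSVZ and 549 to 1002 CPM in CP. Most of this was miR-145-5p (mean 1454 CPM, against 96.7 CPM for miR-143-3p). Of the 4 arms, only miR-145-5p was called higher in the OSVZ than in CP (1.44 ± 0.37, edgeR adjusted p = 0.0109). There miR-143-3p was at 0.44 ± 0.47 (edgeR adjusted p = 0.768), miR-143-5p at 0.20 ± 1.43 (0.976) and miR-145-3p at -1.48 ± 1.27 (0.68). miR-155-5p was higher in the same comparison, and the part of vessels in it was not tested. Endothelial miR-126 was at a summed 1434 to 5288 CPM in the OSVZ and was not called there.

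miR-204 and miR-211 are known from choroid plexus and pigment epithelium. Their 4 arms summed to 209 to 1953 CPM in VZ, 166 to 957 CPM in the OSVZ and 4946 to 7253 CPM in CP, and most of this was miR-204-5p, which was called lower in VZ (-3.84 ± 0.46, edgeR adjusted p = 1.47e-07) and in the OSVZ (-3.46 ± 0.41, adjusted p = 1.65e-07). Both arms of miR-211 were not called, with miR-211-5p at 1.46 ± 0.68 in VZ (edgeR adjusted p = 0.213) and -0.08 ± 0.63 in the OSVZ (adjusted p = 0.979). The part of such cells in the levels of the immune miRNAs was not tested.

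A wider list of miRNAs tied to immune cells, such as miR-21, miR-22, miR-23a, miR-24, miR-27a, miR-146b and miR-511, held 22 arms, of which 20 were tested. In VZ against CP 1 arm was higher, 0 were lower and 19 did not pass, with a median of 0.76 against -0.22 over all arms. That 1 of 20 is near the 2.63% of all arms called higher. The arm was miR-23a-3p, at 1661 to 4452 CPM in VZ and 1127 to 1588 CPM in CP without overlap (1.45 ± 0.37, edgeR adjusted p = 0.00854). miR-27a-3p, from the same transcript as miR-23a, was at 1.48 ± 0.49 (edgeR adjusted p = 0.0657). miR-24-3p, also on this list, was at -0.51 ± 0.36 (edgeR adjusted p = 0.428). miR-146b-5p, which shares its seed with miR-146a-5p, was at -1.08 ± 0.44 (edgeR adjusted p = 0.144), where miR-146a-5p was at 1.66. These 3 arms were chosen after their values were seen. In each of the other 4 comparisons edgeR called 0 of the 20 arms. An unadjusted p under 0.05 was found in 3 (OSVZ against CP), 1 (OSVZ against VZ), 2 (inner against outer OSVZ) and 3 (area 17 against 18). These counts are not read as an excess, since the share of all arms at that threshold is not given here.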

How the data were processed

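The deposited tables give raw read counts, without normalization, for the 5p and the 3p arm of each miRNA name in each library. Library totals over the shared arms were 3603478 to 9517217 counts. Per the labels' protocols, RNA came from laser-cut pieces and libraries were size-selected. Near-identical miRNAs may share reads, since the aligner, build, annotation and handling of ambiguous reads are not given in the sources used here.

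Columns were assigned to set 1 or set 2 by the spelling of their regions and by the regions a table holds, which gave 14 libraries. The other 12 value columns have names that match no label and stayed out, and 6 of 20 labelled samples are not analysed here. The design, written for 20 libraries, was fitted to these 14. Of 861 and 868 names, the 828 in both tables were kept (1656 arms). filterByExpr by region kept 1139 arms. Counts were TMM-scaled and tested with edgeR 4.0.16 (R 4.3.3), glmQLFit and glmQLFTest on region means with the set as a block, and Benjamini-Hochberg adjustment over 1139 arms. VZ and CP are means of both areas, and OSVZ is the mean of area 18 and the mean of the area 17 parts. The fit has 6 residual degrees of freedom. To these edgeR adds a median of 28.1 prior degrees of freedom, borrowed from the spread of all arms, and the p-values rest on both. The scripts were tested on simulated data. To check the pairing, the deviations of libraries of the same set from their region means were correlated across 379 arms. All 21 pairs of regions were above 0.1 (median r 0.589, range 0.209 to 0.733), and in the labels each set is 1 embryonic day, so the block was kept.

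Alternatives were no block, DESeq2 size factors, library totals, the DESeq2 1.42.0 Wald test, no filter, arms of at least 10 CPM, and libraries left out. By plan, immune arms with a mean of 10 CPM or more are given with log2 differences and p-values, and the others by counts. Log2 differences of the others between VZ and CP, some with p-values, are an addition to that plan. For each immune arm of 10 CPM or more the 3 most similar arms are named. Counts at an unadjusted p under 0.05 are given without the share of all arms at that threshold. The miRNAs, lists and rules were chosen with earlier results of these data known. The permutation tests of miR-342 arms, the interaction and the overlap counts under other scalings were added after the values were seen.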

Additional observations from a re-analysis of the deposited data

Results flagged for a closer look

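In groups of 4 to 6 libraries, the gap of the highest or lowest library to the next was set against the range of the group, for 53 groups of arm levels and arm shares. For normally distributed values chance would flag about 1 in 20 groups. That rate does not hold here, since many values are at or near 0 counts. The level and the share of an arm also rest on the same counts. In all, 16 values were flagged, a number that does not measure an excess over chance. Of these, 6 were in VZ_18 replicate 1. They were miR-146a-3p at 5.78 CPM (other VZ libraries 0.406 to 1.08), miR-155-3p at 82.1 CPM (0 to 2.47), miR-223-5p at 62.1 CPM (0 to 5.95), and 3p shares of 11.6% for miR-146a (0.358% to 1.71%), 3.22% for miR-150 (0% to 0.388%) and 50.1% for miR-155 (0% to 1.02%). In CP, CP_17 replicate 2 was low for miR-146a-5p, at 3.69 CPM against 27.8 to 31.2, and high for miR-155-3p, at 10.6 CPM against 0.221 to 0.69 (a share of 37.2% against 0.877% to 2.68%). CP_17 replicate 1 was high for miR-146a-3p, at 6.67 CPM against 0.833 to 1.55.

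Flags in the OSVZ rested on few counts. miR-142-5p was at 2.92 CPM in OSVZ_17ext replicate 1 (19 counts) against at most 0.926. OSVZ_18 replicate 2 had miR-223-5p at 2.81 CPM (15 counts) against 0.162 to 0.809, a 5p share of miR-223 of 5.12% against at most 0.738%, and a 3p share of miR-150 of 0.333% (7 counts) against at most 0.0917%. OSVZ_17int replicate 1 had 3p shares of 3.72% for miR-146a (7 counts, at most 1.12% elsewhere) and 7.81% for miR-155 (20 counts, at most 2.88% elsewhere).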

How the results depend on the processing

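The 6 abundant immune arms, and miR-223-5p between VZ and CP, gave 650 refitted values. Of these, 602 kept their direction and side of the threshold, 22 reversed, 24 gained and 2 lost the call. Of 60 values from 1 set alone, which have no test, 7 had the opposite sign, and 0 of these were of a called arm. miR-155-5p kept its call against CP in all 21 refits, at 2.06 to 3.77 in VZ and 2.22 to 2.75 in the OSVZ, and miR-342-3p in VZ in all 21, at -1.83 to -1.23. miR-223-3p lost it without CP_17 replicate 1 and without CP_18 replicate 1.

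Without the replicate block, 53 arms were called between VZ and CP (84 with it), 0 between OSVZ and VZ (1 with it) and 0 between the areas (1 with it), and the fit without the block changed no call of an immune arm. By DESeq2 the counts were 172 for VZ against CP, 129 for OSVZ against CP (72 by edgeR), 27 for OSVZ against VZ, 2 for inner against outer OSVZ (0 by edgeR) and 18 for the areas, and immune arms called were 5, 3 and 1 in the first 3. OSVZ against VZ gave 0 with DESeq2 size factors and 0 with library totals. Immune arms called between OSVZ and CP were 2 with either scaling, where the counts over all arms are given above. They were 2 without the filter, where 1651 arms were tested. They were 3 among the 379 arms of at least 10 CPM, only 6 of which are immune arms. How many of all arms were called without the filter, or among arms of at least 10 CPM, is not given here for each setting. These counts of immune arms are therefore not read as an excess. Over all arms the 7 other settings gave 49 to 129 calls for OSVZ against CP. Among arms of at least 10 CPM, OSVZ against VZ gave 6 calls. The areas gave 11 without the filter. With VZ_17 replicate 2 and VZ_18 replicate 1 left out, 125 arms (2 of them immune) were called for OSVZ against CP, 2 for OSVZ against VZ, 6 for inner against outer OSVZ and 3 for the areas.

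With single libraries left out, calls were 53 (without CP_17 replicate 2) to 120 for VZ against CP, 44 (without OSVZ_18 replicate 2) to 100 for OSVZ against CP with 1 to 2 immune arms and 45 without CP_17 replicate 1, 0 to 24 (without VZ_17 replicate 1) for OSVZ against VZ, 0 to 1 for inner against outer OSVZ and 0 to 24 (without VZ_17 replicate 1) for the areas.

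All reversals among the refits were of uncalled values. With library totals miR-342-5p was at 0.10 for VZ against CP, and miR-155-5p and miR-342-3p at -0.14 and -0.0029 between areas. miR-342-3p was at 0.03 without the block and 0.09 among arms of at least 10 CPM for inner against outer OSVZ. With both VZ libraries out, miR-146a-5p was at -0.13 for OSVZ against VZ, miR-223-5p at -0.44 for VZ against CP, and miR-150-5p and miR-223-3p at -0.03 and 0.04 between areas. With single libraries left out, miR-150-5p was at -0.17 to 0.50 for VZ against CP, miR-146a-5p at -0.13 to 0.63 and miR-155-5p at -0.99 to 0.41 for OSVZ against VZ, miR-146a-5p at -0.95 to 0.08, miR-223-3p at -0.28 to 0.79 and miR-342-3p at -0.37 to 0.01 for inner against outer OSVZ, and miR-155-5p at -0.47 to 0.42 between areas. The causes were not tested. Where a region keeps 1 library, it is assumed to vary like the others. Low counts limit miR-142 and the passenger arms, most of which rest on under 100 counts per library. miR-142-3p also split by set, with 143 counts in set 1 and 0 in set 2, where miR-142-5p had 150 and 76. The cause of that split was not tested.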
